A study of Mus musculus with 4 samples.

Results

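The genes described here carry glucose and small organic acids across the kidney proximal tubule or make glucose there. They were chosen by symbol, as 10 of the 25636 genes in the count matrices: the sodium-coupled transporters Slc5a2, Slc5a12, Slc5a8 and Slc5a10, the carriers Slc2a2, Slc16a9 and Slc16a14, and the gluconeogenic enzymes Pck1, G6pc and Fbp1. Earlier results of these data were known at that choice. Shares of all genes set beside counts of members are therefore a reference and not a test. Single-nucleus RNA libraries were made from the kidney of female mice, with 1 library in each of 4 groups: MRL/lpr at 10 weeks, C57BL/6 at 10 weeks, MRL/lpr at 6 weeks and C57BL/6 at 6 weeks. MRL/lpr mice carry the lpr mutation of the death receptor gene Fas on the MRL background and develop lupus-like nephritis, and C57BL/6 is a common inbred strain. The labels give the tissue as kidney and the series' design text as its cortex. No MRL group with intact Fas was analysed here, so strain background, Fas mutation and disease cannot be told apart. With 1 library per group there is no replicate check and no test was run. Every interval below is a 95% interval of counting error alone, and every value describes these 4 libraries.

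The proximal tubule takes back nearly all filtered glucose. Sodium-coupled carriers on the luminal side bring glucose, lactate and other monocarboxylates into the cell together with sodium, and facilitative carriers let glucose out on the blood side. The same cells make glucose from lactate, glutamine and glycerol, and the kidney is, with the liver, one of the organs that release glucose into the blood. Along the tubule the early convoluted part is called S1 and the later parts S2 and S3, and the transporters are spread unequally between them.

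The 4 libraries held 9365 to 10182 barcodes, of which 8663 to 9147 per library were kept, with a median of 561 to 693 unique molecular identifiers (UMIs, counted RNA molecules) per nucleus. Any 2 libraries shared 112 to 143 barcodes, or 1.13% to 1.45% of a library. Nuclei were classed by raw UMIs of marker genes that hold no member. Proximal tubule-like nuclei numbered 5098 in MRL/lpr and 3932 in C57BL/6 at 10 weeks, and 5125 in MRL/lpr and 3766 in C57BL/6 at 6 weeks, and all 10 proximal tubule markers had UMIs in each. A proximal tubule-like nucleus was called S1-like when its S1 marker UMIs outnumbered its S2/S3 marker UMIs, and S2/S3-like in the opposite case. At 10 weeks 3844 MRL/lpr and 2647 C57BL/6 nuclei were S1-like, and 1030 MRL/lpr and 1070 C57BL/6 nuclei S2/S3-like. At 6 weeks 3198 MRL/lpr and 2681 C57BL/6 nuclei were S1-like, and 1574 MRL/lpr and 882 C57BL/6 nuclei S2/S3-like. The S1 marker Slc22a12 lay on the S2/S3 side in all 4 libraries. Slc7a13, an S3 marker of male mice above all, had at most 19 UMIs in a library. Levels are given as counts per 1000000 UMIs of the class (CPM). They compare a gene with itself between groups and not with another gene, since 3' counts do not scale alike between genes.

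The early proximal tubule held more of both main luminal carriers. Slc5a2 (ENSMUSG00000030781, chromosome 7) encodes SGLT2, the sodium-glucose cotransporter that recovers most filtered glucose and the target of the gliflozin drugs. Its level in S1-like nuclei was 1037 CPM in MRL/lpr and 1258 CPM in C57BL/6 at 10 weeks, and 1116 CPM in MRL/lpr and 1511 CPM in C57BL/6 at 6 weeks. In S2/S3-like nuclei it was 199 CPM in MRL/lpr and 187 CPM in C57BL/6 at 10 weeks, and 238 CPM in MRL/lpr and 382 CPM in C57BL/6 at 6 weeks. Every S1-like value lay above every S2/S3-like value, by 3.95 to 6.72 times within a library. Slc5a12 (ENSMUSG00000041644, chromosome 2) encodes a low-affinity sodium-coupled lactate carrier of the luminal membrane. S1-like nuclei had 3382 CPM of it in MRL/lpr and 5045 CPM in C57BL/6 at 10 weeks, and 2014 CPM in MRL/lpr and 5548 CPM in C57BL/6 at 6 weeks. S2/S3-like nuclei had 543 CPM in MRL/lpr and 975 CPM in C57BL/6 at 10 weeks, and 497 CPM in MRL/lpr and 1410 CPM in C57BL/6 at 6 weeks. The lowest S1-like value, of MRL/lpr at 6 weeks, was still above the highest S2/S3-like value, of C57BL/6 at 6 weeks.

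Slc5a8 and Slc5a10 lay the other way. Slc5a8 (ENSMUSG00000020062, chromosome 10) encodes the high-affinity partner of Slc5a12 for lactate, pyruvate and short-chain fatty acids. In S1-like nuclei it had 67.3 CPM in MRL/lpr and 145 CPM in C57BL/6 at 10 weeks, and 50.3 CPM in MRL/lpr and 113 CPM in C57BL/6 at 6 weeks. In S2/S3-like nuclei the values were 278 CPM in MRL/lpr and 460 CPM in C57BL/6 at 10 weeks, and 185 CPM in MRL/lpr and 396 CPM in C57BL/6 at 6 weeks. The log2 ratio of S1-like over S2/S3-like nuclei was between -2.04 and -1.66 in the 4 libraries. Slc5a10 (ENSMUSG00000042371, chromosome 11) encodes SGLT5, a luminal carrier of mannose and fructose. It had 78.7 CPM in MRL/lpr and 74.6 CPM in C57BL/6 at 10 weeks, and 22.5 CPM in MRL/lpr and 51.8 CPM in C57BL/6 at 6 weeks, in S1-like nuclei. Its S2/S3-like values were 193 CPM in MRL/lpr and 235 CPM in C57BL/6 at 10 weeks, and 93.5 CPM in MRL/lpr and 145 CPM in C57BL/6 at 6 weeks. The log2 ratios ran from -2.05 to -1.30. Within each library both genes were therefore lower in S1-like nuclei.

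**Figure D1:**
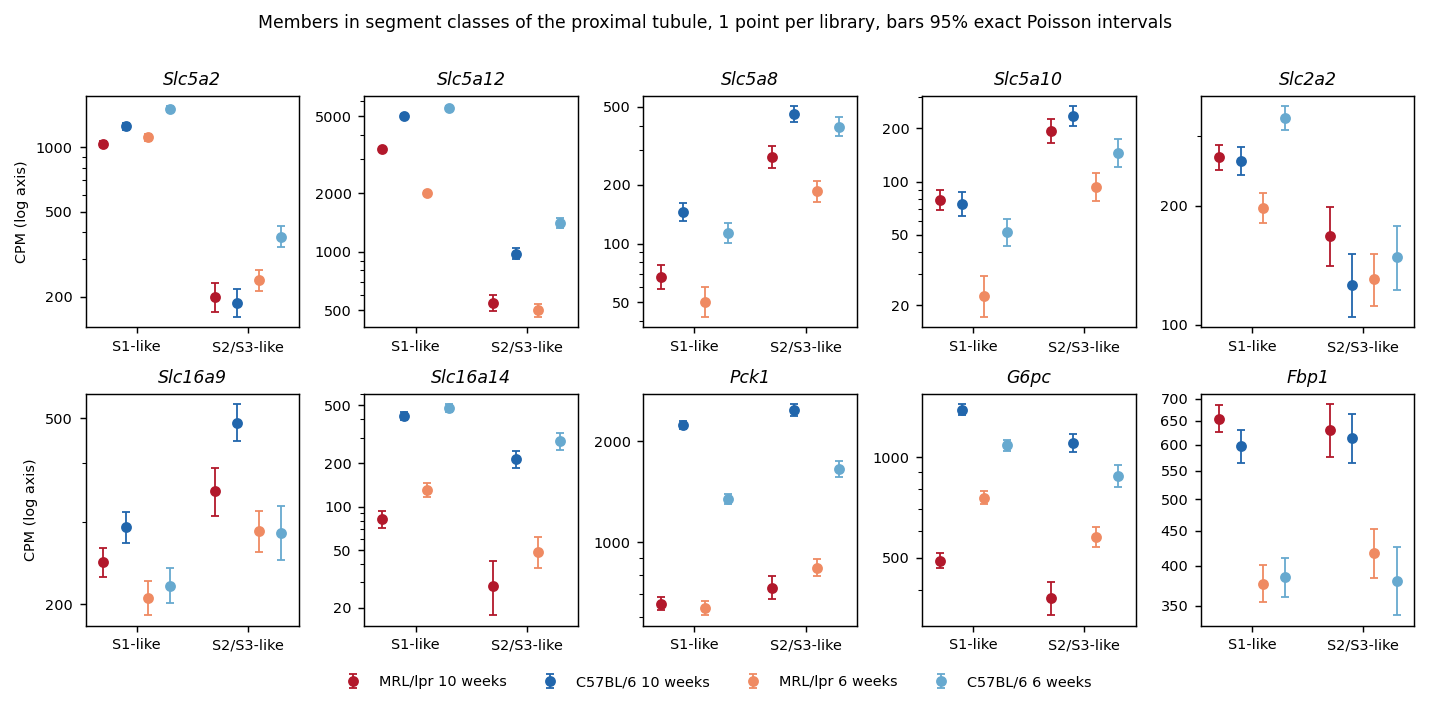
CPM of each member (log axis) in S1-like and S2/S3-like nuclei, with 1 point per library and exact Poisson 95% intervals as bars. Slc5a2 and Slc5a12 are higher and Slc5a8 and Slc5a10 lower in S1-like nuclei of every library, while the Pck1, G6pc and Slc16a14 points of MRL/lpr lie below those of C57BL/6 in both classes.

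Of the other carriers, Slc2a2 and Slc16a14 lay on the S1 side and Slc16a9 on the S2/S3 side. Slc2a2 (ENSMUSG00000027690, chromosome 3) encodes GLUT2, through which glucose leaves the early tubule cell on the blood side. Its S1-like level was 265 CPM in MRL/lpr and 259 CPM in C57BL/6 at 10 weeks, and 197 CPM in MRL/lpr and 332 CPM in C57BL/6 at 6 weeks. Its S2/S3-like level was 168 CPM in MRL/lpr and 126 CPM in C57BL/6 at 10 weeks, and 130 CPM in MRL/lpr and 148 CPM in C57BL/6 at 6 weeks. The classes did not overlap, and the ratios within a library were 1.51 to 2.25. Slc16a14 (ENSMUSG00000026220, chromosome 1) and Slc16a9 (ENSMUSG00000037762, chromosome 10) belong to the monocarboxylate carrier family of Slc16 genes, and the human protein of SLC16A9 has been studied as a carrier of carnitine and creatine. Slc16a14 lay on the S1 side with log2 ratios of 1.54 and 0.99 in MRL/lpr and C57BL/6 at 10 weeks, and 1.43 and 0.76 in MRL/lpr and C57BL/6 at 6 weeks. Its lowest S1-like value, 81.7 CPM in MRL/lpr at 10 weeks, was below the 283 CPM of S2/S3-like nuclei of C57BL/6 at 6 weeks, so the classes overlapped between libraries. Slc16a9 lay weakly on the S2/S3 side, with log2 ratios between -0.74 and -0.38.

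The enzymes were less than 1.5-fold apart between the segments in all 4 libraries. Pck1 (ENSMUSG00000027513, chromosome 2), the cytosolic enzyme that turns oxaloacetate into phosphoenolpyruvate, had log2 ratios of S1-like over S2/S3-like nuclei between -0.40 and -0.15. G6pc (ENSMUSG00000078650, chromosome 11), the catalytic subunit that frees glucose in the last step, lay between 0.30 and 0.39. Pck1 thus lay weakly on the S2/S3 side and G6pc weakly on the S1 side, with intervals clear of 0 in all 4 libraries. Fbp1 (ENSMUSG00000069805, chromosome 13), the bisphosphatase between them in the pathway, lay between -0.15 and 0.06, and its interval held 0 in all 4 libraries. In all, 6 of 10 members were at least 1.5-fold apart in the same direction in all 4 libraries, against 5.24% of the 11676 genes compared. Slc2a2, at 1.51 times in its lowest library, left this count in 6 of 11 alternative processings, which then held 5 of 10. Of the 6 members, Slc5a2, Slc5a12, Slc2a2 and Slc16a14 were higher in S1-like nuclei (2.37% of genes), and Slc5a8 and Slc5a10 lower (2.87%).

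Nuclei were also placed by the share of S1 markers among their segment-marker UMIs, in 5 bins of 20 percentage points. Slc5a12 was at 59.8 CPM in the lowest bin of MRL/lpr and 95.7 CPM in that of C57BL/6 at 10 weeks, and at 4013 CPM in the highest bin of MRL/lpr and 6063 CPM in that of C57BL/6. Slc5a8 ran the opposite way at that age, with 448 CPM in MRL/lpr and 486 CPM in C57BL/6 in the lowest bin, and 22.8 CPM in MRL/lpr and 22.1 CPM in C57BL/6 in the highest. Both genes thus spanned most of their range within each library. Pck1 had its highest value in the second bin in all 4 libraries, at 807 CPM in MRL/lpr and 2822 CPM in C57BL/6 at 10 weeks, and 878 CPM in MRL/lpr and 1832 CPM in C57BL/6 at 6 weeks. The C57BL/6 values of Pck1 in that bin were above those of the highest bin, which were 1824 CPM at 10 weeks and 1143 CPM at 6 weeks. G6pc was lowest in the lowest bin of every library. Slc16a14 was lower in MRL/lpr than in C57BL/6 of the same age in all 5 bins, with 108 CPM against 451 CPM in the highest bin at 10 weeks and 140 CPM against 505 CPM at 6 weeks.

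**Figure D2:**
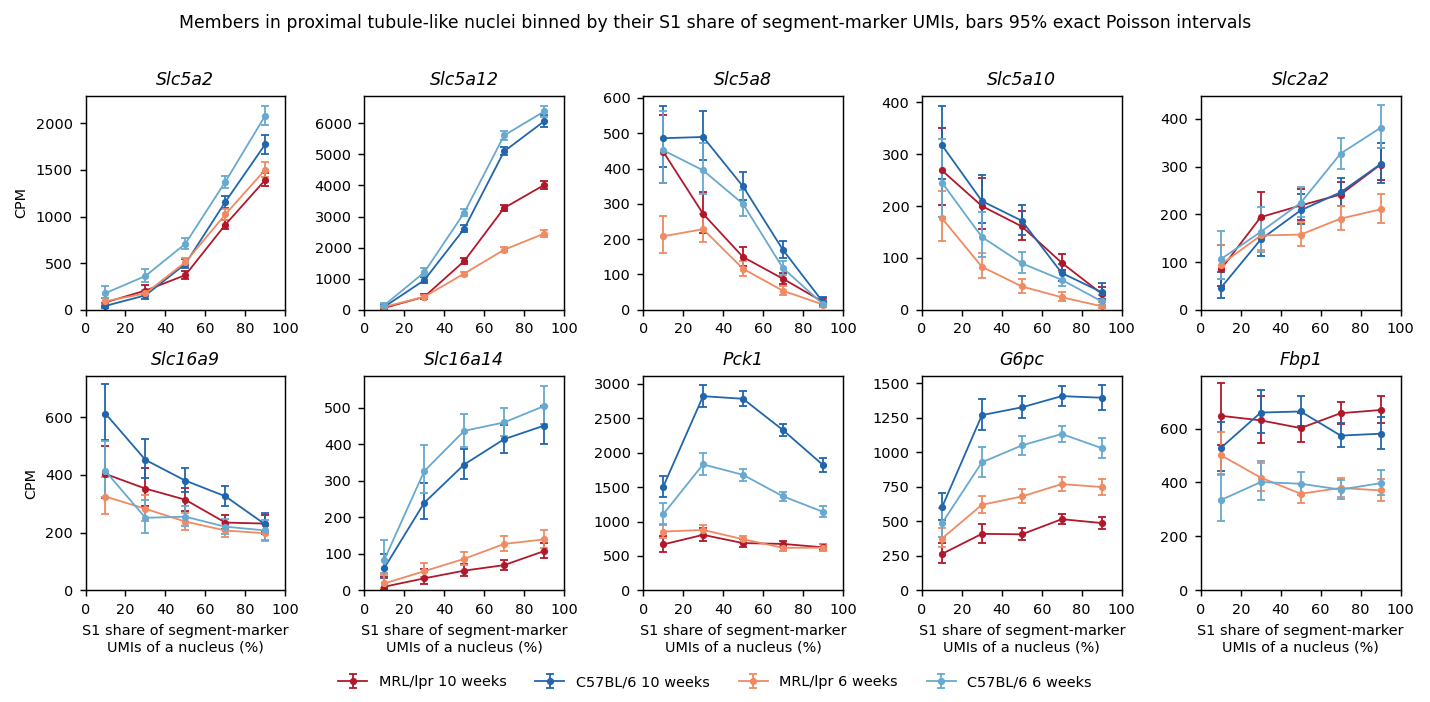
CPM of each member (linear axes from 0) in proximal tubule-like nuclei placed in 5 bins by the S1 share of their segment-marker UMIs in percent, 1 line per library, bars exact Poisson 95% intervals. Slc5a12 climbs to 4013 CPM in MRL/lpr and 6063 CPM in C57BL/6 at 10 weeks, Slc5a8 is lowest at the S1 end, and Pck1 stays between 626 and 807 CPM across the bins of MRL/lpr at 10 weeks.

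Slc5a2 and Slc5a12 were also found in the same nuclei. The Pearson correlation, on log2 of depth-scaled UMIs, of Slc5a2 and Slc5a12 across proximal tubule-like nuclei was 0.39 in MRL/lpr and 0.49 in C57BL/6 at 10 weeks, and 0.34 in MRL/lpr and 0.51 in C57BL/6 at 6 weeks, over the 5098, 3932, 5125 and 3766 nuclei. Of nuclei with a Slc5a2 UMI, 83.6% in MRL/lpr and 89.4% in C57BL/6 at 10 weeks also had a Slc5a12 UMI, against 44.0% in MRL/lpr and 40.1% in C57BL/6 of nuclei without one. At 6 weeks the shares were 70.0% against 33.4% in MRL/lpr and 90.6% against 42.6% in C57BL/6. These shares are not matched for depth. Slc5a12 and Slc5a8 were at -0.28 in MRL/lpr and -0.41 in C57BL/6 at 10 weeks, and -0.21 in MRL/lpr and -0.41 in C57BL/6 at 6 weeks. The points share library, depth and free RNA. They also pool S1-like and S2/S3-like nuclei, between which Slc5a2, Slc5a12 and Slc5a8 differ. Pck1 and G6pc, which work in 1 pathway, were at 0.01 to 0.09, too weak to read in counts this sparse, and so were Slc5a2 and Slc2a2, at 0.04 to 0.09.

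Between the strains, 2 enzymes and 2 carriers stood apart at each age. Slc16a14, Pck1, Slc5a8 and G6pc were lower in MRL/lpr by 1.5-fold or more at each age in proximal tubule-like nuclei, which is 4 of 10 members against 4.29% of the 11776 genes compared. In the higher direction there were 0 of 10 members, against 5.41% of genes. The ratios at 10 and 6 weeks share no library. At any size 8 of 10 members were lower in MRL/lpr at both ages, against 28.1% of genes. The median log2 ratio of MRL/lpr over C57BL/6 was -0.44 over the members and 0.07 over all genes at 10 weeks, and -0.72 over the members and -0.02 over all genes at 6 weeks. S1 marker CPM summed to 12670 in MRL/lpr and 11055 in C57BL/6 at 10 weeks, and to 8799 in MRL/lpr and 10145 in C57BL/6 at 6 weeks, so the ratios are also given within each segment class.

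Among the enzymes, Pck1 and G6pc were lower in MRL/lpr and Fbp1 was level. Pck1 had 673 CPM in MRL/lpr and 2332 CPM in C57BL/6 at 10 weeks, from 2674 and 7777 UMIs. At 6 weeks it had 706 CPM in MRL/lpr and 1428 CPM in C57BL/6. Both MRL/lpr libraries lay far below both C57BL/6 libraries, and the C57BL/6 libraries differed between ages while the MRL/lpr ones were close together. The level in MRL/lpr was 3.46 times lower (3.31 to 3.62) at 10 weeks and 2.02 times lower (1.93 to 2.12) at 6 weeks. The ratio was close in both segments, with log2 values of -1.77 in S1-like and -1.76 in S2/S3-like nuclei at 10 weeks, and -1.08 and -0.98 at 6 weeks. After thinning every nucleus to 300 UMIs, 17.0% of MRL/lpr and 45.8% of C57BL/6 proximal tubule-like nuclei at 10 weeks had a Pck1 UMI, and 17.7% of MRL/lpr and 32.0% of C57BL/6 nuclei at 6 weeks. Without thinning the shares were 33.7% in MRL/lpr (median 751 UMIs) and 73.3% in C57BL/6 (823) at 10 weeks, and 36.9% in MRL/lpr (786) and 60.8% in C57BL/6 (859.5) at 6 weeks. Thinning left out 47 MRL/lpr and 31 C57BL/6 nuclei at 10 weeks, and 0 MRL/lpr and 8 C57BL/6 nuclei at 6 weeks. In thick ascending limb-like nuclei, which should not make glucose, the thinned shares were 1.31% in MRL/lpr and 4.84% in C57BL/6 at 10 weeks, and 2.67% in MRL/lpr and 1.99% in C57BL/6 at 6 weeks. The unthinned ones were 2.30% in MRL/lpr (median 416 UMIs) and 7.04% in C57BL/6 (482) at 10 weeks, and 2.89% in MRL/lpr (471.5) and 3.88% in C57BL/6 (447.5) at 6 weeks.

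G6pc had 460 CPM in MRL/lpr and 1304 CPM in C57BL/6 at 10 weeks, and 689 CPM in MRL/lpr and 1038 CPM in C57BL/6 at 6 weeks. MRL/lpr at 10 weeks was the lowest library and C57BL/6 at 10 weeks the highest. The level was 2.83 times lower (2.68 to 2.99) in MRL/lpr at 10 weeks and 1.51 times lower (1.43 to 1.58) at 6 weeks, so the call at 6 weeks rests on the edge of the 1.5-fold threshold. It was not past that threshold in S1-like nuclei at 6 weeks, where MRL/lpr was 1.43 times lower (1.35 to 1.52). Fbp1 had 647 CPM in MRL/lpr and 606 CPM in C57BL/6 at 10 weeks, and 385 CPM in MRL/lpr and 386 CPM in C57BL/6 at 6 weeks. Its log2 strain ratios were 0.10 (0.01 to 0.18) at 10 weeks and -0.00 (-0.11 to 0.10) at 6 weeks. Both intervals lie inside 1.5-fold, and neither covers the spread between animals.

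Slc16a14 was the member furthest apart between the strains in these libraries. It had 279 UMIs in MRL/lpr and 1185 UMIs in C57BL/6 at 10 weeks, and 430 UMIs in MRL/lpr and 1451 UMIs in C57BL/6 at 6 weeks. That is 70.3 CPM in MRL/lpr and 355 CPM in C57BL/6 at 10 weeks, and 101 CPM in MRL/lpr and 431 CPM in C57BL/6 at 6 weeks. MRL/lpr was 5.06 times lower (4.43 to 5.78) at 10 weeks and 4.27 times lower (3.84 to 4.77) at 6 weeks. In S2/S3-like nuclei the counts were 23 UMIs in MRL/lpr and 206 UMIs in C57BL/6 at 10 weeks, a log2 ratio of -2.92 (-3.61 to -2.30). Slc5a8 had 115 CPM in MRL/lpr and 248 CPM in C57BL/6 at 10 weeks, and 98.8 CPM in MRL/lpr and 188 CPM in C57BL/6 at 6 weeks. It was 2.15 times lower (1.92 to 2.42) in MRL/lpr at 10 weeks and 1.91 times lower (1.68 to 2.16) at 6 weeks, and it was past 1.5-fold in both segment classes at each age. With segments required to be 2 times apart it was not, since its log2 ratio at 10 weeks was then -0.07 in S1-like and -0.57 in S2/S3-like nuclei.

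Slc5a12 was lower in MRL/lpr above all at 6 weeks. It had 2718 CPM in MRL/lpr and 3754 CPM in C57BL/6 at 10 weeks, and 1481 CPM in MRL/lpr and 4428 CPM in C57BL/6 at 6 weeks. The library of MRL/lpr at 6 weeks was the lowest of the 4, at 2.99 times below C57BL/6 (2.90 to 3.08), against 1.38 times (1.35 to 1.42) at 10 weeks. Within S2/S3-like nuclei it was 1.80 times lower at 10 weeks and 2.83 times lower at 6 weeks, so it joined the calls there. With the most abundant segment markers left out its log2 ratio at 10 weeks was -0.26 in that class, and it left them. Slc5a2 was close to level at 10 weeks in proximal tubule-like nuclei, with 838 CPM in MRL/lpr and 909 CPM in C57BL/6. At 6 weeks it had 801 CPM in MRL/lpr and 1202 CPM in C57BL/6, a log2 ratio of -0.58 (-0.65 to -0.52). In S1-like nuclei it was 1.21 times lower (1.15 to 1.28) in MRL/lpr at 10 weeks and 1.35 times lower (1.29 to 1.42) at 6 weeks. In S2/S3-like nuclei its log2 ratios were 0.09 and -0.68. Slc5a10, with 193 to 423 UMIs per library, had log2 ratios of -0.25 at 10 weeks and -0.73 at 6 weeks. Its ratios at these ages were 0.08 and -1.20 in S1-like nuclei, and -0.28 and -0.64 in S2/S3-like nuclei.

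Slc2a2 was lower in MRL/lpr at 6 weeks and close to level at 10 weeks in proximal tubule-like nuclei. It had 243 CPM in MRL/lpr and 220 CPM in C57BL/6 at 10 weeks, and 174 CPM in MRL/lpr and 284 CPM in C57BL/6 at 6 weeks. Its log2 strain ratio was 0.14 (0.00 to 0.28) at the later age and -0.71 (-0.85 to -0.57) at the earlier. Slc16a9 had 269 CPM in MRL/lpr and 358 CPM in C57BL/6 at 10 weeks, and 232 CPM in MRL/lpr and 239 CPM in C57BL/6 at 6 weeks, with log2 ratios of -0.41 and -0.05. In S1-like nuclei 3 of 10 members were lower in MRL/lpr by that margin at each age, namely Slc16a14, Pck1 and Slc5a8, against 4.01% of genes. Slc5a12 joined them in 7 of 11 alternative processings. In S2/S3-like nuclei there were 5 of 10, the same 3 with Slc5a12 and G6pc, against 4.45% of genes. In the higher direction there were 0 members in S1-like nuclei, against 5.34% of genes, and 0 in S2/S3-like nuclei, against 4.98%.

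**Figure D3:**
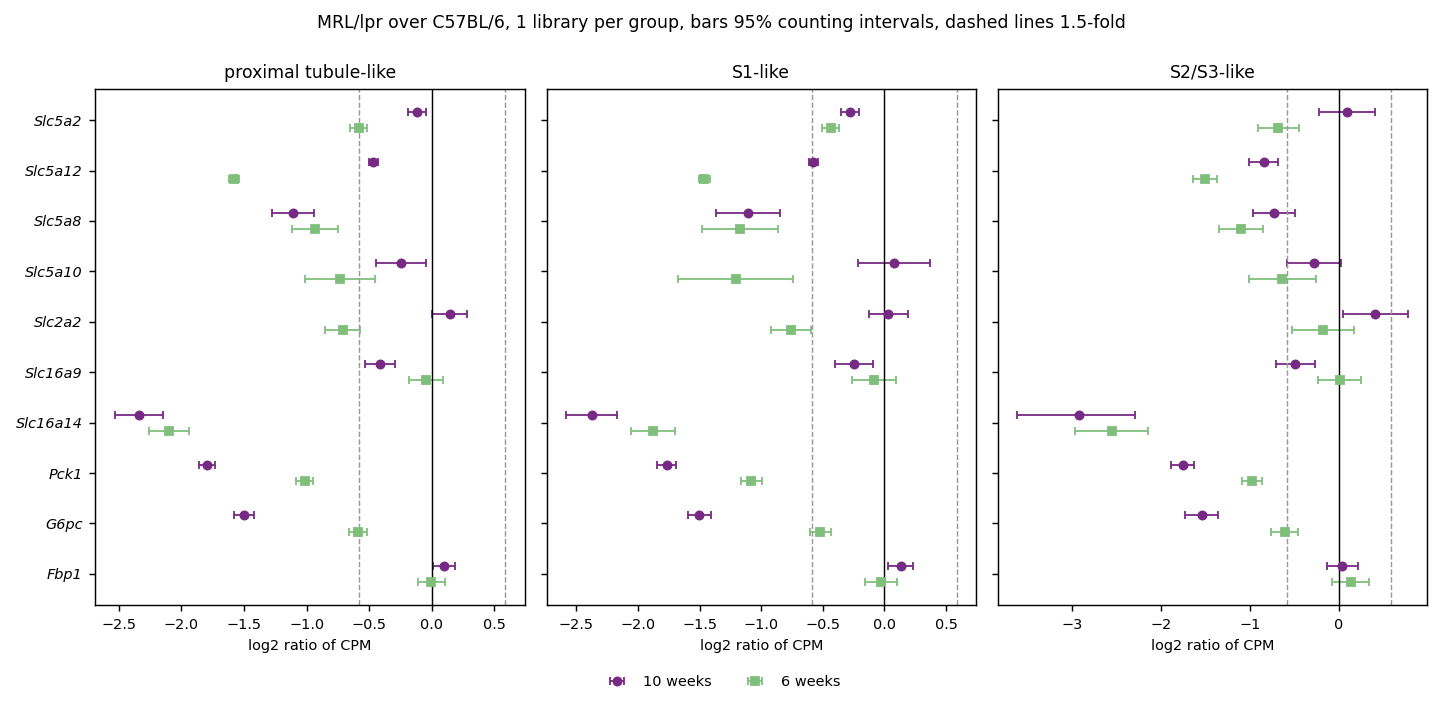
Log2 ratio of MRL/lpr over C57BL/6 for each member at 10 weeks (circles) and 6 weeks (squares) in proximal tubule-like, S1-like and S2/S3-like nuclei, bars counting intervals at 95%, dashed lines at 1.5-fold. Slc16a14, Pck1 and Slc5a8 lie left of the lower dashed line at both ages in all 3 panels, and Fbp1 lies between -0.03 and 0.13.

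The promoters of the 4 members called lower in MRL/lpr in proximal tubule-like nuclei are shown because they lay in the same direction. They are RefSeq sequences of the reference strain on GRCm38.p6, from 250 bases before to 50 after the start of the gene, written 5′ to 3′ on the strand of the gene. Pck1 is at chr2:173152823-173153122 on the plus strand, G6pc at chr11:101367466-101367765 on the plus strand, Slc16a14 at chr1:84935034-84935333 on the minus strand and Slc5a8 at chr10:88885742-88886041 on the plus strand. Capitals mark matches to the cyclic AMP response core TACGTCA or to the HNF1 half-site GTTAAT on either strand.
Pck1: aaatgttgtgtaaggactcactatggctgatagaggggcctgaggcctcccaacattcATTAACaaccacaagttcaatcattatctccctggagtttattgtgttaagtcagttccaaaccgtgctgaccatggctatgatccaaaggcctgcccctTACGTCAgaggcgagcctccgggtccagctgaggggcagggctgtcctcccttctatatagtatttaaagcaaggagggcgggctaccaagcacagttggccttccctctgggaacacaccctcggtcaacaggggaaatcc
G6pc: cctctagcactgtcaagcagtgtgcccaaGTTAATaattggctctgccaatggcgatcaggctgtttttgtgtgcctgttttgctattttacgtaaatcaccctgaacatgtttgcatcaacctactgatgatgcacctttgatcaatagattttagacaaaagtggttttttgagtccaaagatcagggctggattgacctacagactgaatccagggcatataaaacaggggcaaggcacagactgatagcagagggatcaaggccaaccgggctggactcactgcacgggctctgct
Slc16a14: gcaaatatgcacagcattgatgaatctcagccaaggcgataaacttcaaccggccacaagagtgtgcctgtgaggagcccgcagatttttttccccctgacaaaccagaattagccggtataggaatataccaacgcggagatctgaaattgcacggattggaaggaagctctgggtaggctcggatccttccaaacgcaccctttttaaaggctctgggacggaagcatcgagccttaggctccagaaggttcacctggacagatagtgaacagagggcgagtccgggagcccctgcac
Slc5a8: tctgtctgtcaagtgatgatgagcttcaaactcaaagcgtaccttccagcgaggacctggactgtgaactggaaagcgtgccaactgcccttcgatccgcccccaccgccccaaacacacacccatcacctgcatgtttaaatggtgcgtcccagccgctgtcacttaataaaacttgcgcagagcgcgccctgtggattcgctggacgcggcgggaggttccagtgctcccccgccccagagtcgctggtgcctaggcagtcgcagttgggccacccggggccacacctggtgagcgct

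The table gave windows for 8 members, and not for Slc5a2 and Slc5a12. The core TACGTCA was found 92 bases before the start of Pck1 and in 1.27% of the 32851 promoter windows. GTTAAT was found 192 bases before Pck1, on the minus strand, 221 before G6pc and 75 before Slc5a10, and in 7.10% of windows. A glucocorticoid receptor half-site AGAACA (19.0% of windows), an E-box CACGTG (7.15%), the HNF4 letters CAAAGTCCA (0.475%), the forkhead letters GTAAACA (3.65%) and the D-box letters TTATGTAA (0.938%) matched in 0 of the members' windows. Both strands were searched for every motif. A match says only that the letters are there.

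With age, Fbp1 and Slc5a10 stood higher in the older mice of each strain. These 2 of 10 members were at least 1.5-fold higher in both, against 1.38% of genes, and 0 of 10 were lower, against 1.04%. The ratios of the 2 strains share no library. Fbp1 was 1.68 times higher in MRL/lpr and 1.57 times higher in C57BL/6 at 10 weeks. Slc5a10 was 2.35 times higher in MRL/lpr, with 107 CPM at 10 weeks and 45.3 CPM at 6 weeks, and 1.68 times higher in C57BL/6, with 127 CPM and 75.2 CPM.

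Other members went apart by strain. Slc5a12 was 1.84 times higher at 10 weeks in MRL/lpr, with a log2 ratio of 0.88 (0.83 to 0.92), and lay at -0.24 (-0.27 to -0.20) in C57BL/6. Slc2a2 lay at 0.48 in MRL/lpr and -0.37 in C57BL/6. The enzyme gene G6pc ran the other way, at -0.58 in MRL/lpr and 0.33 in C57BL/6. Pck1 was close to level in MRL/lpr, at -0.07 (-0.14 to 0.01), and higher at 10 weeks in C57BL/6, at 0.71. In MRL/lpr it lay at 0.04 in S1-like and -0.20 in S2/S3-like nuclei. These age ratios use the same libraries as the strain ratios above. Slc16a14 was lower at 10 weeks in both, by log2 ratios of -0.52 in MRL/lpr and -0.28 in C57BL/6, which misses 1.5-fold in proximal tubule-like nuclei. Within the segments MRL/lpr was past it, at 1.60 times lower (1.35 to 1.89) in S1-like and 1.73 times lower (1.06 to 2.91) in S2/S3-like nuclei. The latter rests on 23 and 66 UMIs. C57BL/6 was 1.13 times lower in S1-like and 1.33 times lower in S2/S3-like nuclei. The median log2 age ratio was 0.22 over the members and 0.03 over all genes in MRL/lpr, and 0.36 over the members and -0.07 over all genes in C57BL/6.

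**Figure D4:**
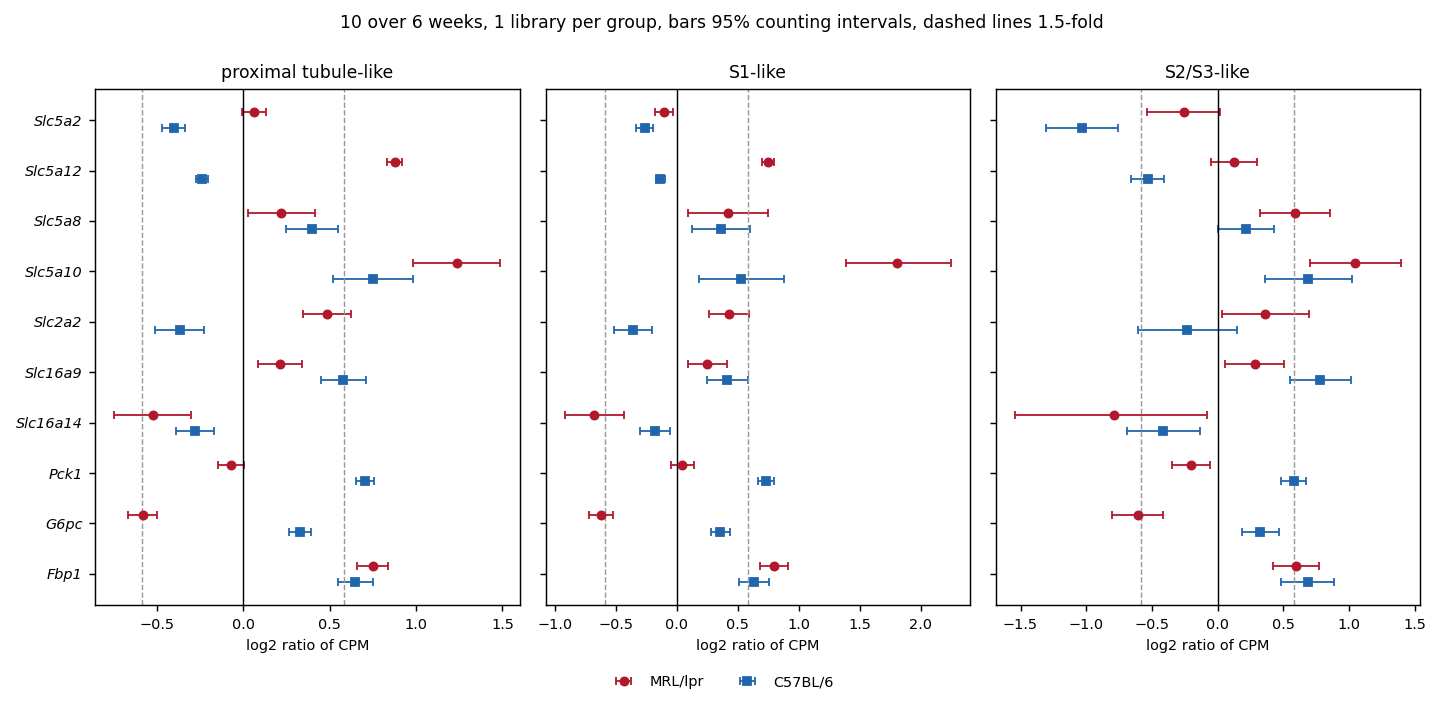
Log2 ratio of 10 over 6 weeks for each member in MRL/lpr (circles) and C57BL/6 (squares) in proximal tubule-like, S1-like and S2/S3-like nuclei, bars counting intervals at 95%, dashed lines at 1.5-fold. Slc5a10 and Fbp1 lie right of 0 in both strains, and G6pc lies left of 0 in MRL/lpr and right of 0 in C57BL/6 in all 3 panels.

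Outside the proximal tubule most members were near or below the level predicted for free RNA. Free RNA of the tubule enters every droplet, so 8 proximal tubule genes that set no class were used as a measure: their summed CPM in the other classes was 3.32% to 15.0% of that in the proximal tubule, over 8 classes and 4 libraries. Of 80 pairs of member and class, 0 lay above every one of these 8 genes in all 4 libraries. That rule is strict and could miss low expression. Slc5a10 in stromal-like nuclei, for example, had 0.564 UMIs predicted over the 4 libraries. Over all classes and libraries G6pc had 226 UMIs, which is 0.754 times the number the 8 genes predict, Fbp1 had 0.939 times and Slc2a2 0.735 times. Pck1 had 549 UMIs, which is 1.24 times, and was above 1 beyond counting error in 2 of 8 classes, the distal and connecting tubule-like (1.28, 1.12 to 1.47) and the intercalated cell-like (1.41, 1.09 to 1.78). Slc5a2 and Slc5a12, the 2 carriers of the early tubule, differed from the measure in opposite ways. Slc5a2 had 530 UMIs, which is 1.67 times the prediction, and was above 1 beyond counting error in 5 of 8 classes. Slc5a12 had 366 UMIs, which is 0.343 times, and was below 1 beyond counting error in all 8. Of the 8 genes, Slc34a1 alone gave 9187 of the summed 14274 CPM in the proximal tubule of MRL/lpr at 10 weeks. In C57BL/6 at 10 weeks it gave 9402 of 12989 CPM. At 6 weeks it gave 6691 of 11527 CPM in MRL/lpr and 9481 of 13593 CPM in C57BL/6. A value near or below 1 is therefore not counted as expression, and it does not show that expression is absent. For contrast, Slc5a1, the gene of SGLT1, had 257 UMIs in thick ascending limb-like nuclei against 1.66 predicted, and Slc16a7, the gene of the lactate carrier MCT2, had 3250 UMIs in distal and connecting tubule-like nuclei against 1.25 predicted. These 2 genes were named after their values were seen.

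**Figure D5:**
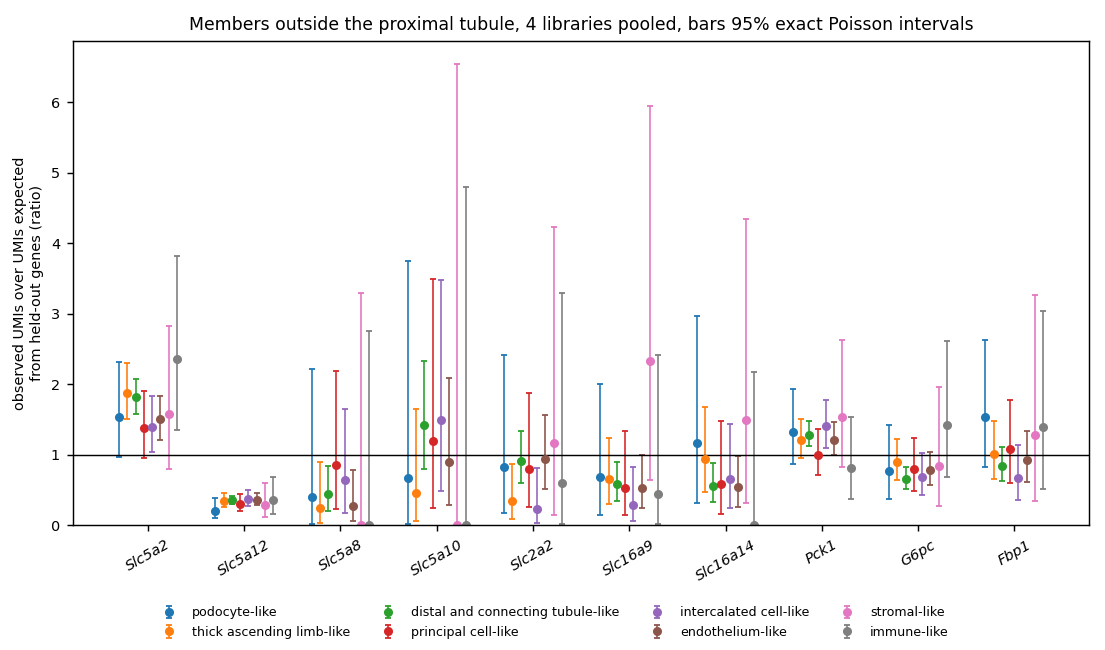
UMIs of each member over the UMIs predicted from 8 held-out proximal tubule genes (ratio, linear axis from 0), for 8 classes outside the proximal tubule with the 4 libraries pooled, bars exact Poisson 95% intervals. Slc5a12 lies below 1 in all 8 classes and Slc5a2 above 1 in all 8, while members with few UMIs have wide intervals.

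Among the other genes of these pathways few stood apart. Over 5 lists with 82 gene symbols, Map17 among them being a second name of Pdzk1ip1, 75 genes could be compared in proximal tubule-like nuclei. Of these, 6 were lower in MRL/lpr by 1.5-fold or more at each age and 3 higher, beside 4.29% and 5.41% of all genes. Of 9 other glucose and fructose transporters compared, 0 were past 1.5-fold at both ages. The most abundant were the inositol carrier gene Slc5a11, with log2 ratios of -0.09 and 0.15 at 10 and 6 weeks, and the fructose carrier gene Slc2a5, with 1.08 and 0.35. Of 13 monocarboxylate genes, 2 were higher and 1 lower by that margin at each age: Bsg, the chaperone of these carriers, had 272 CPM in MRL/lpr and 169 CPM in C57BL/6 at 10 weeks, and 441 CPM in MRL/lpr and 265 CPM in C57BL/6 at 6 weeks. Emb, a chaperone of the same family, was also higher, with log2 ratios of 2.21 and 3.09 on 22 UMIs in MRL/lpr and 4 in C57BL/6 at 10 weeks and 54 in MRL/lpr and 5 in C57BL/6 at 6 weeks. The mitochondrial pyruvate carrier gene Mpc1 was lower, at -0.97 and -0.62, while Mpc2, its partner, lay at -0.23 and -0.10. Slc16a12, a creatine carrier gene and the most abundant of the list, lay at 0.51 and 0.34.

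Of 23 other gluconeogenic and lactate genes, 12 were lower and 3 higher in MRL/lpr at each age at any size, and 2 were lower and 0 higher by 1.5-fold or more. For this list and the next ones, 28.1% of all genes were lower at any size. By 1.5-fold or more 4.29% were lower and 5.41% higher. The glutamine transporter gene Slc38a3 had 6.30 CPM in MRL/lpr and 61.5 CPM in C57BL/6 at 10 weeks, and 5.16 CPM in MRL/lpr and 32.7 CPM in C57BL/6 at 6 weeks. These rest on 22 to 205 UMIs per library. Glud1, the glutamate dehydrogenase, had log2 ratios of -0.90 at 10 weeks and -0.59 at 6 weeks. Mdh1, the cytosolic malate dehydrogenase, lay at 0.07 and -0.10. The list median was -0.32 at 10 weeks and -0.23 at 6 weeks, against 0.07 and -0.02 over all genes. Of 13 genes of glycolysis and fructose use, 3 were higher and 3 lower at any size, and 1 was higher and 0 lower by 1.5-fold or more, namely Pfkfb2 at 1.42 and 1.22. Sord, the sorbitol dehydrogenase, lay at 0.09 and -0.33, and Khk, the ketohexokinase, at -0.34 and 0.02. Of 17 regulators, 10 were lower and 4 higher at any size, and 3 were lower and 0 higher by 1.5-fold or more: the forkhead factor gene Foxo3 at -1.58 and -1.11, the insulin receptor substrate gene Irs1 at -1.39 and -1.37, and Cebpb at -2.09 and -1.70 on 7 to 36 UMIs per library. Pdzk1ip1, whose product activates SGLT2, lay at 0.38 and 0.23, and the scaffold gene Pdzk1 at -0.10 and 0.13.

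Genes known to respond to fasting and glucocorticoids, time of day and handling also differed between libraries, and their part in the ratios of Pck1 and G6pc was not tested. The 14 fasting and glucocorticoid genes summed to 617 CPM in MRL/lpr and 1729 CPM in C57BL/6 at 10 weeks, and to 1212 CPM in MRL/lpr and 2056 CPM in C57BL/6 at 6 weeks. Of 11 compared, 9 were lower in MRL/lpr at each age at any size and 0 higher, against 28.1% of all genes lower. By 1.5-fold or more 5 were lower, against 4.29% of all genes, among them Fkbp5 (-1.61 and -1.50), Zbtb16 (-2.79 and -2.59), Angptl4 (-3.85 and -2.91) and Pdk4 (-2.48 and -0.97). Among 15 clock genes compared, 12 lay on opposite sides at the 2 ages, 2 were higher in MRL/lpr at each and 1 lower, and Bhlhe40 alone of the 15 was past 1.5-fold in the same direction at each. Arntl had log2 ratios of -2.17 at 10 weeks and 1.04 at 6 weeks, and Nr1d1 of 2.66 and -2.31, and the hour of collection is not given in the sources used here. Of 9 early response genes, 4 were higher and 2 lower in MRL/lpr at each age at any size, and 2 were higher (Junb and Ier2) and 1 lower (Dusp1) by 1.5-fold or more. Beside these and the clock genes, 28.1% of all genes were lower at any size. By 1.5-fold or more 5.41% were higher and 4.29% lower. Shares of all genes higher at any size or on opposite sides are not reported here. Immune marker UMIs in proximal tubule-like nuclei summed to 64.0 CPM in MRL/lpr and 31.2 CPM in C57BL/6 at 10 weeks, and to 49.0 CPM in MRL/lpr and 33.6 CPM in C57BL/6 at 6 weeks. Of 12 markers 11 or 12 had a UMI, with Cd3e at 0 in MRL/lpr at 10 weeks and C57BL/6 at 6 weeks, and their part in the ratios was not tested. The share of mitochondrial UMIs was 0.126% in MRL/lpr at 10 weeks and 0.279% to 0.301% in the other libraries.

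The genes most like each member, over the 8 values of 2 segment classes in 4 libraries and among 9072 genes, were found by Pearson correlation of log2(CPM + 1). For Slc5a2 they were Gatm (0.99), Lipa and Sesn3, and for Slc5a12 Slc43a2 (0.98), Slc7a8 and Retreg1. For Slc5a8 they were Acaa1b (0.99), Chpt1 and Slc13a3, and for Slc5a10 Cyp2j7 (0.98), Bhmt2 and Iah1. Gatm, Slc7a8 and Slc13a3 were among the markers that set the segments. For Pck1 they were Egfr (0.98), Pepd and Sfxn1, for G6pc Ndrg1 (0.99), Mrpl3 and Slc25a3, and for Fbp1 Abcc2 (0.97), Tnrc6a and Dpp4. For Slc2a2 they were Tbc1d1 (0.98), Kcp and Scpep1, for Slc16a9 Mtmr11 (0.99), Arhgef39 and Scamp2, and for Slc16a14 Map3k7 (0.98), Cyp2d26 and Dync1i2. The values share libraries, depth and segment classes, and with so many genes set against 8 values high correlations arise readily.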

How the data were processed

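UMI counts per gene and barcode were made and deposited by the authors with Cell Ranger. Per the file headers its version was 5.0.0. The submitters' processing notes name 3.1.0. The build and the counting of intronic or antisense reads are not stated in those sources. Of 25636 gene IDs, 25585 match GENCODE mouse release 21. In that annotation 0 genes overlap a member on the same strand. Opposite-strand genes overlap Slc5a2, Slc5a10, Slc2a2 and Slc16a9.

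Nuclei needed 200 genes and at most 10% mitochondrial UMIs. Scrublet, run in scanpy 1.11.5 at 0.8% per 1000 barcodes, marked doublets, and 427 to 863 per library were removed. In MRL/lpr 6 weeks the automatic threshold marked 0, so the highest scores at the expected rate were removed. Of 39074 barcodes 35739 were kept. Proximal tubule-like nuclei had at least 4 UMIs of 10 proximal tubule markers and at most 2 of any other class. Other classes needed at least 3 UMIs from 2 markers, at most 3 proximal tubule marker UMIs, and 2 times as many as the next class. Thresholds were set after marker and member UMIs had been seen. Segments were set by 10 S1 and 14 S2/S3 markers.

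UMIs were summed per class and library and scaled to CPM. A gene was compared where its libraries together held 50 UMIs or more in the class, and all 10 members passed in every class compared. Log2 ratios hold no prior count, and their intervals are conditional exact binomial intervals. Called means at least 1.5-fold apart, in the same direction, in both ages, both strains or all libraries. The calculation of the ratios was checked on simulated counts that vary by counting error alone. Such counts hold no spread between nuclei, animals or libraries, so the check covers the arithmetic and not that spread. Python 3.11.15, numpy 2.4.6, scipy 1.17.1, pandas 2.3.3 and matplotlib 3.10.9 were used.

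Named genes are all members, pathway genes called between strains at both ages, the 2 most abundant of each pathway list, and the 3 genes most like each member. Some genes that this rule or a list's count covers are not reported here. The members, lists and markers were chosen with earlier results of these data known. Motifs, printed promoters, contrast genes outside the tubule, clock genes and early response genes named were chosen after values were seen.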

Additional observations from a re-analysis of the deposited data

Results flagged for a closer look

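The age ratio (log2 of 10 over 6 weeks) of 4 members lay on opposite sides of 0 in the strains, with both counting intervals clear of 0, in the classes given here. With 1 library per group these differences were not tested. For Slc5a12 the ratio in MRL/lpr minus that in C57BL/6 was 1.11 in proximal tubule-like nuclei (0.88 and -0.24) and 0.88 in S1-like nuclei (0.75 and -0.14). For Slc2a2 it was 0.85 in proximal tubule-like nuclei (0.48 and -0.37) and 0.79 in S1-like nuclei (0.43 and -0.36). The strain ratio of Slc2a2 at 10 weeks minus that at 6 weeks is the same 0.85 by arithmetic (0.14 and -0.71). For G6pc the difference was -0.91 in proximal tubule-like nuclei (-0.58 and 0.33), -0.98 in S1-like nuclei (-0.62 and 0.36) and -0.93 in S2/S3-like nuclei (-0.61 and 0.33). For Pck1 it was -0.78 in S2/S3-like nuclei (-0.20 and 0.58).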

How the results depend on the processing

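No paired analysis was possible because each group has 1 library. Of 660 strain values under 11 alternatives, 638 kept their direction, as did 655 of 660 age values and 437 of 440 segment values. Of the strain values past 1.5-fold, 361 of 374 stayed past it, against 225 of 242 for age and 267 of 275 for segments. All these counts include values that could not change. Dropping the minimum of UMIs per gene left every member ratio as it was. The alternatives that alter only the segment rule or its markers left the ratios in proximal tubule-like nuclei as they were. The 4 members called in the proximal tubule became 3 (without G6pc) with the median ratio of all genes set to 0 and without mitochondrial and ribosomal genes, and under the stricter class gate Slc5a12 took the place of Slc5a8. In S1-like nuclei the stricter gate gave 5 members, with Slc5a12 and G6pc added to the 3; Slc5a12 joined in 7 of the 11 alternatives, and Slc5a8 left with segments 2 times apart. In S2/S3-like nuclei Slc5a8 left under that rule, Slc5a12 with the most abundant segment markers left out, and G6pc with doublets kept or under the stricter gate. Slc2a2 left the segment calls in 6 alternatives. The alternative called free RNA subtracted took the pooled profile of the 8 other classes, at full weight, from the proximal tubule counts, down to 0. That profile also holds those nuclei's own RNA, so it is not an estimate of free RNA alone. Over all genes it gave 1785 called strain differences in the proximal tubule, and no minimum of UMIs gave 2885, against 1142. In S1-like nuclei these were 1683 and 2660, against 1034. In S2/S3-like nuclei they were 1554 and 2655, against 869. The age count became 1143 and 1514, against 284. The stricter gate gave 559 in S2/S3-like nuclei, and 275 segment differences against 612. Leaving Slc22a12 out of the S1 markers was chosen after seeing the data. The count outside the tubule had no value under the alternatives that rescale all genes or subtract the pooled profile. Counts limit members with few UMIs in a class, such as Slc16a14 in S2/S3-like nuclei, and free RNA limits every share outside the tubule.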
